A study of Mus musculus with 8 samples.

Results

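The first 2 days after the plucking of a resting hair coat were set against both ends of the time course: skin that was only shaved, and skin sampled 50 d after plucking. The 3 early samples were taken at 12 h, 1 d and 2 d after wax plucking, and the 2 outer samples were the shaved control, taken immediately after shaving, and the 50 d sample. They make up 5 of the 8 samples of the series, and the other 3, from days 4, 6 and 10, were used to follow the genes found. A gene was a member when all 3 early values lay above, or all 3 below, both outer values, so that neither outer sample alone decided a difference. Of 27723 genes tested, 3545 (12.8%) lay above both outer arrays and 3583 (12.9%) lay below both. With a gap of at least 2-fold between the nearest early and the nearest outer array, 177 genes (0.638%) lay above and 31 (0.112%) below.

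All mice were female C57BL/6, an inbred strain, and the back hair was in its resting phase at plucking. The early samples and the shaved control came from mice labelled 10 weeks old, and the 50 d sample from mice labelled 17 weeks old, so the 2 outer samples differ in age as well as in treatment. In the treatment protocol the age at plucking is lower. The series' design text describes an earlier waxing to bring all follicles into step, then the waxing that starts the clock, and it describes the tissue as the surroundings of the follicles, fat and dermis included, while the labels call it adipose cells. Each sample is 1 one-colour array of total RNA, and whether a sample came from 1 mouse or a pool is not given in the sources used here. No time therefore has a replicate, and a difference at a single time carries no test.

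Plucking pulls the club hair out of its follicle and tears the lining of the follicle, so it acts as a small, repeated wound across the skin. The outer layer of skin is built by keratinocytes, which divide in the basal layer with the keratins Krt5 and Krt14, switch to Krt1 and Krt10 as they move up, and end as flat dead cells sealed by a cornified envelope of loricrin, filaggrin, small proline-rich and late cornified envelope proteins. Wounded keratinocytes switch on Krt6, Krt16 and Krt17 and release cytokines of the interleukin-1 family. Neutrophils enter a wound within hours, and acute phase proteins, made mainly by liver but also by fat and skin, accompany inflammation. Hair growth restarts some days after plucking, when cells of the follicle begin to divide again.

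Values below are log2 processed signals minus the 75th percentile of the array, so 0 is the level of a probe brighter than most others on that array, and 1 unit is a 2-fold change. Where 3 early values are given together, they are those of the 12 h, 1 d and 2 d arrays in that order. Between 72.9% and 80.2% of spots on the 5 arrays were well above background and no spot was saturated. Repeat spots of 1 probe differed by a median SD of 0.07 to 0.10 on these arrays, an error that is technical and leaves out the spread between mice. Most markers of fat cells that were read were bright on all 5 arrays. Lep, the hormone leptin, stood lower, at -0.39 on the shaved and 0.69 on the 50 d array. Adipoq, the fat hormone adiponectin, stood at 6.09, 6.90 and 7.36 on the 12 h, 1 d and 2 d arrays, against 6.82 on the shaved and 7.09 on the 50 d array. Fabp4, a fatty acid carrier of fat cells, lay between 8.44 and 8.84 on the early arrays, against 8.45 on the shaved and 8.60 on the 50 d array. Keratinocyte, muscle and blood cell genes were also measured, so RNA of other cells was present. In such mixed tissue, fewer cells of a type and less RNA per cell cannot be told apart.

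The fit of the 3 early against the 2 outer arrays with limma, in which different times serve as the samples of a group, called 0 of 27723 genes (0%) at a Benjamini-Hochberg adjusted p under 0.05, while 2426 genes (8.75%) had an unadjusted p under 0.05. The smallest adjusted p, 0.0638, belonged to Krt1. With quantile normalization 1 gene passed, with normexp background correction 6, and without the 2 d array 2. An exact two-sided permutation test of 3 against 2 arrays has 10 splits and cannot go below p = 0.2. The median standard error of an early minus outer difference was 0.19. The descriptions that follow therefore rest on whether the groups of arrays overlap, and no gene below passed the adjusted threshold. Over all tested genes the median early minus outer difference was -0.02. The choice of outer array mattered: 264 genes were at least 2-fold above the shaved array alone and 372 above the 50 d array alone, so the 177 shared genes are 67.0% of the first set and 47.6% of the second. Below, 274 genes passed against the shaved array and 233 against the 50 d array, and the 31 shared genes are 11.3% and 13.3% of these. The outer arrays themselves were at least 2-fold apart for 1668 genes (6.02%).

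**Figure D1:**
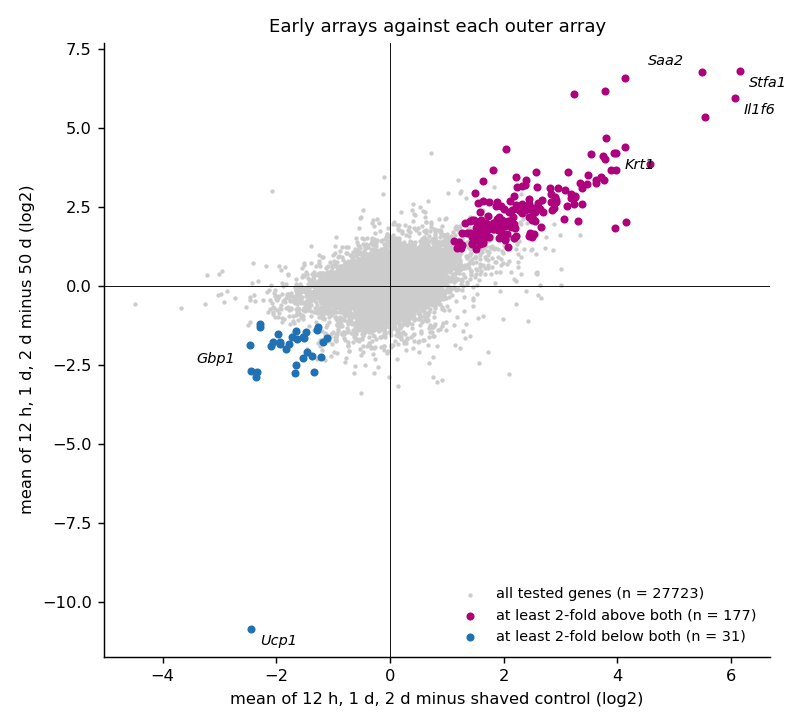
Each point is 1 of 27723 tested genes, with the mean of the 12 h, 1 d and 2 d arrays minus the shaved array on the horizontal axis and the same mean minus the 50 d array on the vertical axis, both in log2 units. The 177 genes at least 2-fold above both outer arrays lie at the upper right, where Stfa1, Saa2 and Il1f6 are farthest out, and the 31 below both lie at the lower left, where Ucp1 stands alone because the 50 d array is high.

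Among the 177 higher genes, 147 were well above background on all 5 arrays, and among the 31 lower genes 23 were. The others entered through the brighter side only, and where a gene was not well above background on any array of the dim side, its fold is given below only as a bound. Under normexp background correction, which lifts dim signals, 99 of the 177 and 9 of the 31 kept a 2-fold gap, while 174 and 31 still lay beyond both outer arrays. Of the higher genes measured by several probes, 19 of 21 had every probe on the same side, as had 6 of 6 lower genes, against 313 of 921 and 323 of 1011 for all genes beyond both outer arrays. These counts include the probe that placed a gene in its set, and they set a 2-fold gap against a gap of any size. They are therefore a description and no independent check. By the gap as the rule measures it, just inside the 2-fold threshold were Defb6 (gap 1.00), Sbsn (1.00), Akap5 (-1.01) and Cd83 (-1.02). Just outside it were Gal3st4 (0.996), Frzb (-0.999) and Cyp4f14 (-0.994).

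Among genes with a proper symbol measured on at least 1 array of each side, the 12 largest gaps belonged to genes of keratinocytes and of the stefin family, while Il1f6, Ereg and Saa2, with only bounds, are given further on. Krt1, the keratin that marks keratinocytes leaving the basal layer, stood at 2.66, 3.25 and 2.46 on the 12 h, 1 d and 2 d arrays, against -1.18 on the shaved and -1.41 on the 50 d array. Its difference of 4.09 ± 0.25 (SE, 3 arrays against 2) is 17.0-fold. By 4 d Krt1 was at 0.72, and at 6 d and 10 d it was at -1.25 and -3.50. Stfa1, a stefin that inhibits cysteine proteases, stood at 3.70, 0.22 and 1.02 on the early arrays, against -4.50 on the shaved and -5.17 on the 50 d array, and 1 of the 2 outer values was well above background. Its 12 h value was far above the other early values, and even the lowest of them lay 4.72 above the nearest outer value. BC100530, now named Cstdc5 and another stefin-like gene, stood at 4.43, 2.53 and 2.26 early, against -1.49 shaved and -0.80 at 50 d. Calm4, a calmodulin-like protein of the epidermis, stood at 3.16, 4.19 and 3.34 early, against -0.20 on the shaved and 0.20 on the 50 d array. Slurp1, a protein secreted by keratinocytes, stood at -0.66, 0.62 and -0.70 early, against -3.58 shaved and -3.52 at 50 d. For Calm4 and Slurp1 the 1 d array was the highest of the early arrays.

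**Figure D2:**
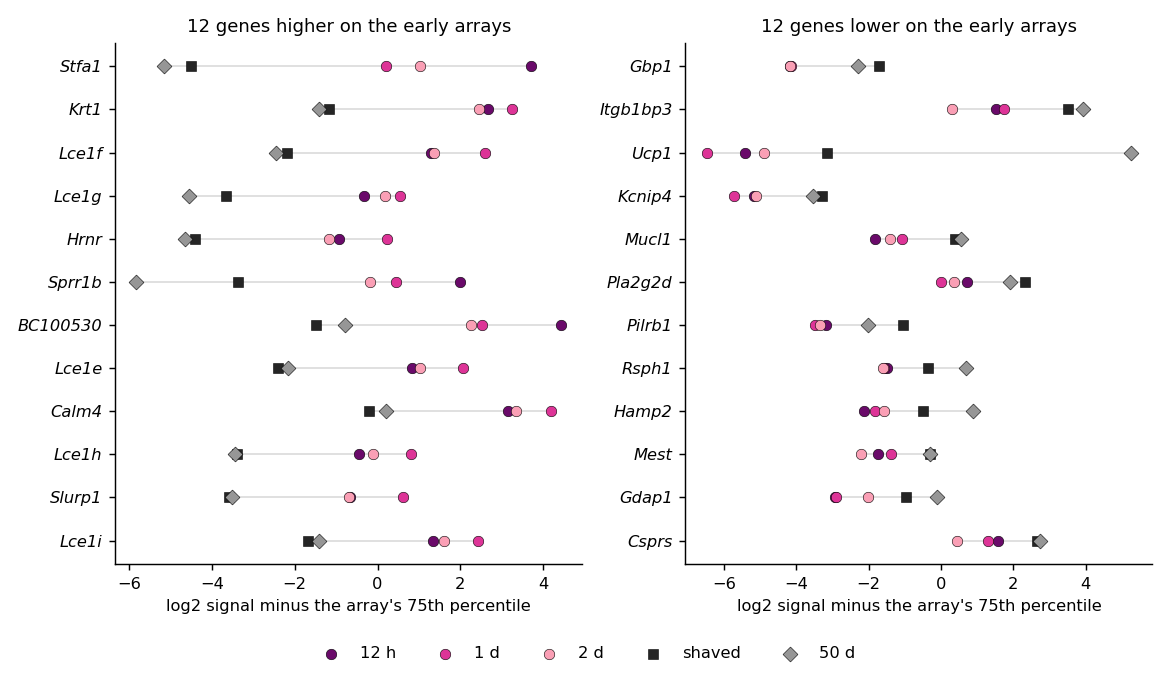
Values of the 12 genes with the largest gap above (left) and below (right) both outer arrays, among genes with a proper symbol measured on at least 1 array of each side, in log2 signal minus the 75th percentile of the array. Circles are the 12 h, 1 d and 2 d arrays, the square is the shaved and the diamond the 50 d array, and the grey line spans all 5. Krt1 lies between 2.46 and 3.25 on the early arrays, against -1.18 shaved and -1.41 at 50 d on the outer ones, and for Ucp1 the 50 d diamond is far to the right at 5.26.

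The list of interfollicular keratinocyte genes had 30 measured members, of which 27 lay above both outer arrays and 22 by at least 2-fold, and its median early minus outer difference was 2.28. All tested genes gave 12.8%, 0.638% and -0.02 for the same measures. The median of the list above the mean of the outer arrays was 2.05 at 12 h, 2.96 at 1 d and 1.70 at 2 d, then 2.15 at 4 d, 1.05 at 6 d and, on day 10, -0.24. The log2 of the summed signal of its members was 7.79 to 8.97 on the early arrays, against 6.23 on the shaved and 6.29 on the 50 d array. Basal genes took part. Krt5 stood at 5.80, 6.24 and 5.32 early, against 3.87 shaved and 3.61 at 50 d, and its partner Krt14 at 4.10, 4.27 and 3.24 early, against 1.43 shaved and 1.13 at 50 d. Trp63, a transcription factor of the basal layer, was the 1 member below both outer arrays, at 2.57, 2.90 and 2.83 early, against 3.00 on the shaved and 2.95 on the 50 d array, a gap of 0.05 that is smaller than the SD between repeat spots. Krt10, the partner of Krt1, stood at 4.11, 5.33 and 4.13 early, against 2.00 shaved and 2.08 at 50 d.

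The genes of the cornified envelope were among those farthest from the outer arrays. Lor, which encodes loricrin, the main protein of the envelope, stood at 4.95, 6.95 and 5.12 on the early arrays, against 2.60 on the shaved and 2.64 on the 50 d array. Flg, which encodes filaggrin, the protein that bundles keratin and breaks down to moisture-holding amino acids, stood at -0.07, 1.80 and 2.30 early, against -2.79 shaved and -3.07 at 50 d. Hrnr, for the related protein hornerin, stood at -0.94, 0.23 and -1.18 early, against -4.41 shaved and -4.66 at 50 d, and 1 of the 2 outer values was well above background. In all of these the groups did not overlap, as the rule for members requires, and Flg was the one that was highest at 2 d. Of the late cornified envelope family, 16 of 17 measured Lce genes lay above both outer arrays and 13 by at least 2-fold, with a median difference of 2.98. For all tested genes these measures were 12.8%, 0.638% and -0.02. Lce1f stood at 1.28, 2.59 and 1.37 early, against -2.20 shaved and -2.45 at 50 d, a difference of 4.07 ± 0.40 (SE). Lce1e stood at 0.83, 2.05 and 1.02 early, against -2.40 shaved and -2.15 at 50 d. These 2 genes, like most of the family, were highest at 1 d, and members of the family are so alike in sequence that their probes may share signal.

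Some enzymes that shape this layer were also among the members. Klk7, a protease that loosens dead cells for shedding, stood at 0.79, 1.05 and 0.48 early, against -1.80 on the shaved and -2.83 on the 50 d array, and Klk5, which activates it, at 0.15, 1.68 and 0.62 early, against -2.11 shaved and -1.85 at 50 d. Of 21 measured kallikrein genes, 9 lay above both outer arrays and 2 below, with a median difference of -0.09 and a range of -1.33 to 3.09. Klk5, Klk7, Klk8 and Klk9 were at least 2-fold above. All tested genes gave 12.8% above and 12.9% below both outer arrays. Casp14, a protease that helps to break down filaggrin, stood at -0.71, -0.23 and -0.61 early, against -2.15 shaved and -1.89 at 50 d. Tgm1, the enzyme that cross-links the envelope, showed a gap of only 0.10, at -0.83, -0.68 and -1.96 early, against -2.06 shaved and -3.05 at 50 d. Of 8 desmosomal cadherins, which rivet keratinocytes to each other, 7 lay above both outer arrays and Dsc1, Dsc3 and Dsg1a by at least 2-fold. Some genes for the lipid barrier, Abca12, Aloxe3, Sult2b1, Degs2 and Acer1, were among the 177. Their early minus outer differences were 2.31, 1.81, 2.06, 1.79 and 1.65 in that order. They were picked from the 177, and lipid barrier genes were not counted as a group.

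The higher genes were unevenly spread over the genome. Chromosome 3 held 34 of the 177 (19.2%), against 4.97% of all tested genes with a known position. A stretch of under 3 Mb there, from 90332439 to 93127679 in mm9 coordinates of the array design, held 29 of them. Of 71 genes tested in the stretch, 45 lay above both outer arrays and 3 below, against 12.8% and 12.9% of all tested genes. It holds the S100, Sprr, Lce, Lor and Flg genes and is known as the epidermal differentiation complex. The stretch was picked as the densest one after the values were seen, so its counts are a description. Of all measured Sprr genes 4 of 10 were at least 2-fold above both outer arrays, against 0.638% of all tested genes. Of all S100 genes 3 of 15 were, 1 of which, S100g, lies on another chromosome. In each of these families 1 gene lay below both outer arrays.

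Promoters were read for 24 of the 33 keratinocyte list members at least 2-fold above both outer arrays, as the 250 bases before the start of the gene (RefSeq, GRCm38.p6). The letters TGANTCA, the core of the site bound by AP-1 (Fos and Jun) proteins, occur on either strand in 12 of these 24 (50%), in 29 of 120 (24.2%) of all higher genes with a promoter in the table, and in 5.54% of the 14280 promoters of tested genes. Every motif named here or below was searched in each group. TTGCNNAA (C/EBP) occurs in 7 of the 24 (29.2%, against 8.40% of tested genes) and GGANTTTCC (NF-kB) in 3 (12.5%, against 1.06%). The 4 below were picked from those with a TGANTCA match, among envelope and keratinocyte genes whose values are given here. Some promoters of genes with values given, such as those of Hrnr, Lce1e and Krt10, hold no TGANTCA. Capitals mark TGANTCA, and the position of its first base before the gene start is -111 in Sprr1b, -103 in Flg, -48 in Lor and -81 in Krtdap. They lie at chr3:92438780-92439029 on the minus strand, chr3:93273296-93273545 on the plus strand, chr3:92083143-92083392 on the minus strand and chr7:30787655-30787904 on the plus strand. A match shows only that these letters are present, and binding was not measured. Krtdap, a small protein secreted by differentiating keratinocytes, stood at 3.68, 4.41 and 3.18 early, against 1.09 shaved and 1.88 at 50 d.
Sprr1b: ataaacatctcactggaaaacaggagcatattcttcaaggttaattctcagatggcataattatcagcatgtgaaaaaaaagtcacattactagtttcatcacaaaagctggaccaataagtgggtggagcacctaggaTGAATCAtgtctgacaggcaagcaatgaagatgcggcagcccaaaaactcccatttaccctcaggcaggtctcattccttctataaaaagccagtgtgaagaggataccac
Flg: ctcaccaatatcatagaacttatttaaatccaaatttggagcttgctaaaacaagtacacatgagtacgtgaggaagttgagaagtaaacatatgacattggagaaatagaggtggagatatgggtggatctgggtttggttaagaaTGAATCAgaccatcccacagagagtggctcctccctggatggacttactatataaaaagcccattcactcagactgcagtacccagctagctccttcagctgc
Lor: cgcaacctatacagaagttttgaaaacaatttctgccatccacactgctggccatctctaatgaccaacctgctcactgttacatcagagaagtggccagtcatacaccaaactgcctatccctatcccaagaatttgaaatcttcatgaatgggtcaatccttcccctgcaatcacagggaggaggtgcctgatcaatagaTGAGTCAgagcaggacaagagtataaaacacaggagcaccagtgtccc
Krtdap: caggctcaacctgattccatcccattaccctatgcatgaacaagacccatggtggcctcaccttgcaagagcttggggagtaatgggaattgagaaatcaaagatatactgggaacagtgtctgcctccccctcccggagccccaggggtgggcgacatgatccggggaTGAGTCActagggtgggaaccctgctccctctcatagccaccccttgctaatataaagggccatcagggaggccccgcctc

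The list of wound keratinocyte genes had 18 measured members, of which 13 (72.2%, against 12.8% of all tested genes) lay above both outer arrays, 11 by at least 2-fold, and none below. Its median difference was 2.35, and the median above the outer mean was 3.21 at 12 h, 1.72 at 1 d and 1.83 at 2 d, so here the 12 h array was highest. Krt16 stood at 4.74, 2.54 and 1.79 on the early arrays, against 0.78 on the shaved and -0.10 on the 50 d array. Krt6b stood at 3.47, -0.63 and -0.13 early, against -1.68 shaved and -2.23 at 50 d. Both keratins are switched on in wounded epidermis, and both were more than 2 units higher at 12 h than at 1 d or 2 d. Krt17 differed less among the early arrays, at 3.67, 3.54 and 3.30 early, against 2.10 shaved and 1.83 at 50 d, and was higher at 4 d, at 5.81. Sprr1b, the proline-rich envelope precursor whose promoter is shown above, stood at 2.00, 0.44 and -0.18 early, against -3.38 shaved and -5.83 at 50 d, and 1 of the 2 outer values was well above background. Sprr2h stood at 0.90, -1.02 and -1.88 early, against -4.65 shaved and -4.33 at 50 d.

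For 2 signals of stressed keratinocytes, Il1f6 and Ereg, only a bound can be given, because neither outer array was well above background. Il1f6, now called interleukin-36 alpha, stood at -0.44, -0.92 and -2.13 on the early arrays, at least 13.3-fold above the outer arrays. Ereg, the epidermal growth factor receptor ligand epiregulin, stood at -1.92, -0.16 and -2.51 early, at least 10.3-fold above. Both were well above background on all 3 early arrays. All 4 measured interleukin-1 family members of the Il1f series lay above both outer arrays, and Il1f5, Il1f6 and Il1f8 by at least 2-fold, with a bound only for Il1f8 too. Of the 18 measured epidermal growth factor receptor ligands, fibroblast growth factors and receptors, 7 (38.9%) lay above both outer arrays and 2 (11.1%) below, with a median of 0.19. All tested genes gave 12.8% above and 12.9% below. Epgn, the ligand epigen, stood at -1.53, -0.77 and -2.19 early, against -2.63 shaved and -2.44 at 50 d, while Egf stood at 0.92, 1.09 and 1.18 early, against 1.33 on the shaved and 2.01 on the 50 d array. Fgf18, a signal that keeps follicles at rest, was also below both, at 0.76, 1.30 and 1.13 early, against 1.55 shaved and 1.85 at 50 d. Thus the ligands of this pathway did not lie on one side of the outer arrays.

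Of 15 acute phase genes, 10 (66.7%, against 12.8% of all tested genes) lay above both outer arrays. The gap was at least 2-fold for 4, none lay below both, and the median difference of the list was 1.02. Saa3, the serum amyloid A made outside the liver, stood at 4.17, 3.23 and 1.40 on the early arrays, against -0.30 on the shaved and -3.15 on the 50 d array, and the 2 outer values were themselves far apart. Saa2 stood at 2.08, -0.16 and -2.38 early, at least 26.8-fold above outer arrays on which it was not well above background. Serpina3n, a serine protease inhibitor, stood at 3.26, 2.73 and 1.33 early, against 0.18 shaved and 0.05 at 50 d. Each of these was highest at 12 h and lowest at 2 d within the window. Hp, the haemoglobin scavenger haptoglobin, was at 7.37, 7.54 and 6.48 early, against 5.95 shaved and 6.07 at 50 d. Because Saa genes are close copies of each other, their probes may share signal.

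The list of alarmins and antimicrobial proteins had 12 measured members, of which 8 (66.7%, against 12.8% of all tested genes) lay above both outer arrays. The gap was at least 2-fold for 5, and the median of the list was 1.32. Lcn2, lipocalin 2, which withholds iron from bacteria, stood at 5.23, 3.52 and 3.07 early, against 1.73 on the shaved and 1.38 on the 50 d array. S100a8, a subunit of the alarmin calprotectin, stood at 4.28, 1.5 and 1.12 early, against -0.21 shaved and 0.00 at 50 d. Defb14, a beta-defensin of skin, stood at -0.33, -1.36 and -2.44 early and was at least 11.5-fold above outer arrays where it was not well above background. In all 3 the 12 h array was the highest. Promoters were read for 7 of the 8 acute phase and alarmin members at least 2-fold above both. The letters TTGCNNAA, the core of the site of C/EBP factors, occur on either strand in 4 of them (57.1%). Their share was 22.5% of all higher genes, 37.5% of the lower genes (6 of 16) and 8.40% of the promoters of tested genes. The letters TGANTCA and GGANTTTCC occur in 0 of the 7. The Saa3 promoter, at chr7:46715677-46715926 on the minus strand, is shown as that of the gene with the largest difference among them that was measured on all 5 arrays, with the match in capitals, starting at -99.
Saa3: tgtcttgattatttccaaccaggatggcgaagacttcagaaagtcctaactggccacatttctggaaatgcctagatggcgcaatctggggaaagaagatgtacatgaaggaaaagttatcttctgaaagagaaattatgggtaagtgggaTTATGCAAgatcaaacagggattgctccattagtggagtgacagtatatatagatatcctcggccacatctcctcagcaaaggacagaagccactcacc

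The neutrophil list held 19 measured members, of which 10 (52.6%, against 12.8% of all tested genes) lay above both outer arrays, 5 by at least 2-fold and none below. Clec4d, a lectin receptor of myeloid cells, stood at 2.41, 0.36 and -0.25 early, against -1.35 shaved and -2.0 at 50 d. Stfa3 stood at 2.21, 0.98 and 1.34 early, against -2.12 shaved and -1.76 at 50 d. The median of the list above the outer mean was 2.06 at 12 h, 0.36 at 1 d and 0.34 at 2 d, and without the 12 h array its median difference of 0.90 was 0.37. Without the shaved array 16 members lay beyond the remaining arrays. The stefins of this list are made by keratinocytes too.

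Lymphocyte genes moved with the 12 h array. The median of 11 measured B cell genes above the outer mean was 3.45 at 12 h, -0.23 at 1 d and -0.11 at 2 d, and that of 18 T and NK cell genes was 2.53, 0.04 and 0.07. The log2 summed signal of the B cell genes was 5.52, 3.26 and 3.22 on the early arrays, against 4.03 on the shaved and 3.49 on the 50 d array, and that of the T and NK cell genes was 5.18, 4.02 and 3.94 early, against 4.26 shaved and 3.92 at 50 d. Cd79b, a part of the B cell receptor, stood at 4.03, -1.46 and -0.79 early, against -0.12 shaved and -0.23 at 50 d. Of these lists, 3 B cell genes (27.3%) and 1 T cell gene (5.56%) lay above both outer arrays on all 3 early arrays, against 12.8% of all tested genes. The part of these cells in the genes that are highest at 12 h was not tested. Cxcl5, a chemokine that attracts neutrophils, followed the same shape, at 1.40, -3.64 and -3.23 early, against -4.04 shaved and -4.41 at 50 d.

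The highest early array was the 1 d array for 119 of the 177 higher genes (67.2%), the 12 h array for 40 (22.6%) and the 2 d array for 18 (10.2%). Among all 3545 genes above both outer arrays the shares were 38.8%, 33.5% and 27.7% in the same order. The median range over the early arrays was 1.07 among the 177, against a median distance of 0.27 between the 2 outer arrays. Among genes with a gap of at least 1 and values in the order 12 h over 1 d over 2 d, the steepest courses were those of Saa2, Sprr2d, Lce3c and S100a8. Sprr2d stood at 1.93, -1.59 and -2.90 early, against -4.64 shaved and -7.02 at 50 d, and Lce3c, whose human relatives are known from injured and psoriatic skin, at 1.77, 0.70 and -1.42 early, against -3.27 shaved and -2.99 at 50 d. With 2 d highest, besides Flg, Fgg, the fibrinogen gamma chain, stood at 0.75, 0.85 and 2.03 early, against -0.81 shaved and -0.27 at 50 d, and Elovl4, which makes very long chain fatty acids for the barrier, at 2.70, 2.86 and 3.16 early, against 1.31 shaved and 1.21 at 50 d. Nearly level over the window were Cyp26b1, which breaks down retinoic acid, at 3.17, 3.32 and 3.32 early, against 1.82 shaved and 1.94 at 50 d, and Gsdma, a gasdermin of the epidermis and follicle, at 1.12, 1.30 and 1.1 early, against -0.71 shaved and -0.89 at 50 d. Gsdma was higher still at 4 d, at 3.79, while Cyp26b1 was down to 1.78 by 6 d.

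**Figure D3:**
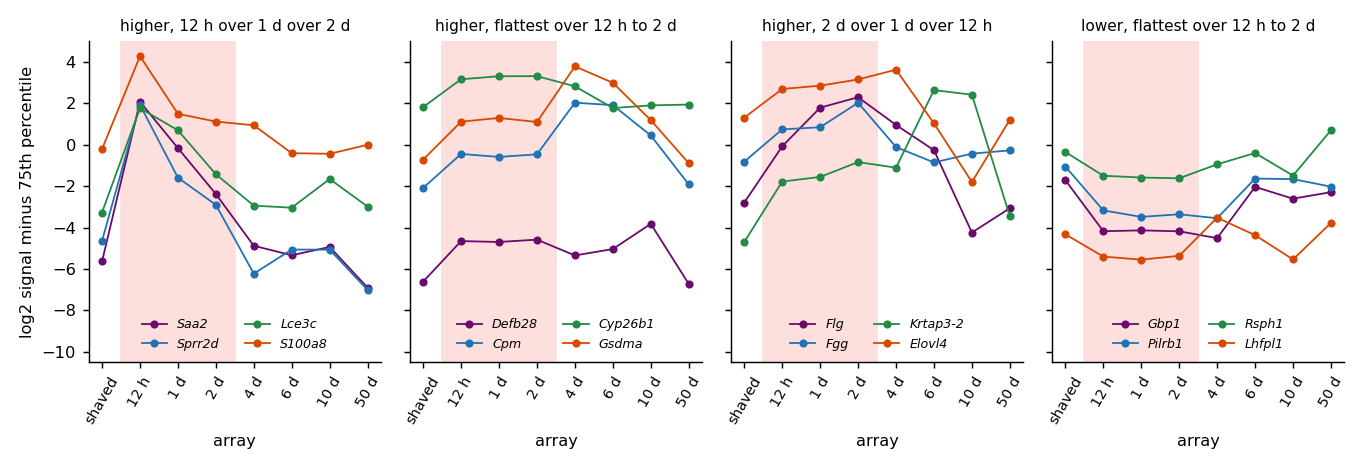
Log2 signal minus the 75th percentile on all 8 arrays, with the 12 h, 1 d and 2 d arrays shaded, for the higher genes with the steepest ordered courses, the flattest higher genes and the flattest lower genes. Saa2 goes through 2.08, -0.16 and -2.38 in the shaded window, Flg through -0.07, 1.80 and 2.30, and Gbp1 stays between -4.18 and -4.14.

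The 4 d, 6 d and 10 d arrays, which the rule for members did not use, were read next against the mean of the outer arrays, which it did use. The median of the 177 higher genes above the outer mean was 2.14, 2.59 and 1.71 at 12 h, 1 d and 2 d, then 2.20 at 4 d, 1.46 at 6 d and 0.45 at 10 d. For the 31 lower genes the medians were -1.82, -1.63 and -1.74 on the early arrays, then -1.83 at 4 d, -0.53 at 6 d and -1.49 at 10 d. All tested genes had medians between -0.17 and 0.01 on the same arrays. The higher genes were thus about as far from the outer arrays at 4 d as in the early window and nearer to them at 10 d, when the spike-in slope of the array was outside its range. Because the genes were chosen by their outer values, some distance on any other array follows from the choice. All tested genes were not chosen in this way.

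Other groups showed smaller gaps, to be read against the 12.8% of all tested genes above and the 12.9% below both outer arrays. Of 20 genes induced by glucocorticoids or coding for metallothioneins, 12 (60%) lay above both outer arrays and none below, and 1 of them, Lcn2, which is in 3 lists, was at least 2-fold above, with a median of 0.55. Fkbp5, a chaperone partner of the glucocorticoid receptor, stood at 3.92, 3.43 and 2.65 early, against 1.67 shaved and 1.76 at 50 d. Mt2, a metal-binding protein, stood at 8.25, 7.48 and 5.65 early, against 4.72 on the shaved and 5.12 on the 50 d array. Both were highest at 12 h and lowest at 2 d among the early arrays. Of 15 sebocyte genes 6 (40%) lay above both, with a median of 0.75. Krt79, a keratin of the duct of the follicle and gland, stood at 4.15, 4.87 and 4.94 early, against 3.43 shaved and 2.87 at 50 d. Awat1, which makes wax esters of sebum, stood at -0.63, -1.05 and -0.81 early, against -1.74 shaved and -1.88 at 50 d. Of 17 endothelial genes 6 (35.3%) lay above both and none below, with a median of 0.21, and Esam, a junction protein of vessels, stood at 1.89, 2.09 and 2.17 early, against 1.23 shaved and 1.56 at 50 d. Of 24 WNT pathway genes 6 (25%) lay above and 4 (16.7%) below. Wnt10a, a ligand of epidermis and follicle, stood at -0.03, 0.59 and -0.51 early, against -1.39 shaved and -0.97 at 50 d. Sfrp2, a secreted WNT modulator of dermal fibroblasts, was among those below, at 2.02, 2.17 and 2.48 early, against 3.91 shaved and 3.41 at 50 d.

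**Figure D4:**
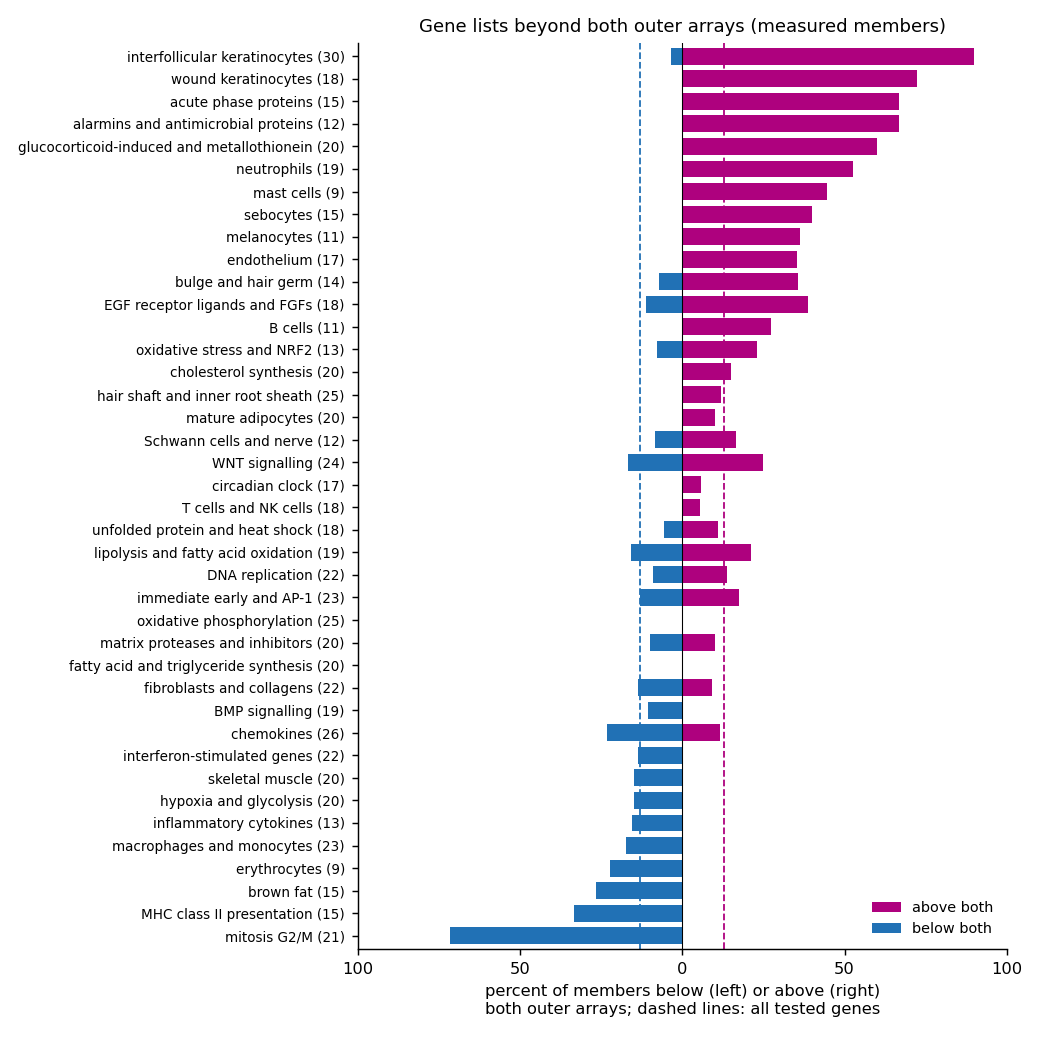
For each of 40 gene lists, with its number of measured members in brackets, the bar to the right is the percent of members above both outer arrays and the bar to the left the percent below both, and dashed lines mark 12.8% and 12.9% of all tested genes. Interfollicular keratinocyte genes reach 90% to the right, and mitotic genes reach 71.4% to the left.

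The lower genes had smaller gaps than the higher ones, none beyond 1.85. Gbp1, now Gbp2b, a guanylate-binding protein induced by interferon, had the largest. It stood at -4.18, -4.14 and -4.18 on the early arrays, against -1.71 on the shaved and -2.29 on the 50 d array, a difference of -2.17 ± 0.22 (SE), and it was at -4.51 at 4 d and -2.03 at 6 d. Itgb1bp3, now Nmrk2, a nicotinamide riboside kinase of muscle, stood at 1.5, 1.73 and 0.30 early, against 3.51 shaved and 3.92 at 50 d. Mest, an imprinted gene linked to the expansion of fat cells, stood at -1.74, -1.39 and -2.21 early, against -0.31 shaved and -0.32 at 50 d. The 2 outer values of Mest were almost equal and above every early value. Pla2g2d, a secreted phospholipase of dendritic cells and macrophages, stood at 0.71, -0.01 and 0.36 early, against 2.33 shaved and 1.89 at 50 d. Cd83, a marker of activated dendritic cells, stood at 1.17, 1.02 and 1.47 early, against 2.49 shaved and 2.51 at 50 d. Ccl24, a chemokine for eosinophils, stood at 1.31, 1.76 and 1.76 early, against 3.90 shaved and 2.80 at 50 d. These 3 immune genes are named because they lay below both outer arrays, so their shared direction follows from the choice.

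Ucp1, the uncoupling protein of brown fat, lay below both outer arrays, but far below the 50 d array only. It stood at -5.43, -6.48 and -4.90 on the early arrays, against -3.16 on the shaved and 5.26 on the 50 d array. It was well above background on 2 of the 3 early arrays. The gap to the shaved value was -1.74, and most of the mean difference came from the 50 d value. Of 15 brown fat genes 4 (26.7%, against 12.9% of all tested genes) lay below both outer arrays. The median of the list was -0.85 against the 50 d array and 0.13 against the shaved array. Acot11, a thioesterase of brown fat, stood at -1.08, -0.80 and -1.06 early, against -0.36 shaved and 1.77 at 50 d. Bounds were the only values for Adamts19, Lhfpl1, Epyc and Cndp1, which were at least 3.06-fold, 2.35-fold, 2.30-fold and 1.96-fold lower on the early arrays in that order. None of these 4 was well above background on any early array. Their bounds compare the means of the sides. By the gap, Adamts19 (-0.64) and Cndp1 (-0.78) fell short of 2-fold, so they are not among the lower genes counted at 2-fold.

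Genes of mitosis formed the group with the largest share below the outer arrays. Of 21 measured G2/M genes, 15 lay below both, none above and none by 2-fold, with a median of -0.76, against 12.9% of all tested genes. The medians about the outer mean were -0.77, -1.0 and -0.60 at 12 h, 1 d and 2 d, against 0.47 on the shaved and -0.47 on the 50 d array, so the list lay close to the 50 d array and well below the shaved one. Aurka, a kinase of the spindle poles, stood at -0.67, -1.09 and -0.98 early, against -0.01 shaved and 0.46 at 50 d. Nusap1, a protein that bundles spindle microtubules, stood at -2.65, -2.95 and -2.32 early, against -1.04 shaved and -1.78 at 50 d. Ube2c, the enzyme that marks mitotic cyclins for breakdown, stood at -0.66, -1.04 and -0.79 early, against 0.66 shaved and -0.27 at 50 d. In each the 1 d array was the lowest. Of the arrays that had no part in the comparison, those of 4 d and 6 d went the other way, with list medians of 2.45 and 1.5. At 10 d the list median was below the outer mean again, at -0.38. Mki67, the proliferation antigen Ki-67, was at 0.46, 0.04 and 0.55 on the early arrays, against 1.36 on the shaved and 0.64 on the 50 d array, and at 4.17 at 4 d. Of 22 DNA replication genes 3 (13.6%) lay above both outer arrays and 2 (9.09%) below, with a median of 0.02. All tested genes gave 12.8% above and 12.9% below. Tk1, which salvages thymidine, was 1 of the 2 below, at -0.71, -1.07 and -0.72 early, against 0.01 shaved and -0.05 at 50 d.

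Promoters were read for 12 of the 15 G2/M genes below both outer arrays. The CCAAT box, CCAAT on either strand, occurs in 10 of them (83.3%), against 35.9% of the promoters of tested genes. The letters TTTGAA on either strand, the core of the cell cycle homology region that keeps mitotic genes silent in resting cells, occur in 5 (41.7%), against 12.4%. Those of AP-1 and of C/EBP occur in 0 of the 12, and those of NF-kB in 1. Both motifs occur in the promoters of Cdc20, Mki67, Cdk1, Ccnb2 and Ube2c. Those of Ccnb2, for cyclin B2, and of Ube2c are shown as examples. They lie at chr9:70421555-70421804 on the minus strand and chr2:164769679-164769928 on the plus strand, and capitals mark both motifs on either strand. The CCAAT and TTTGAA matches do not overlap each other, but in Ube2c 1 CCAAT overlaps its own complement on the other strand. The TTTGAA of Ccnb2 starts at -167, and the match in Ube2c starts at -29. Ccnb2 itself stood at -0.32, -0.82 and -0.36 on the early arrays, against 1.19 on the shaved and -0.15 on the 50 d array.
Ccnb2: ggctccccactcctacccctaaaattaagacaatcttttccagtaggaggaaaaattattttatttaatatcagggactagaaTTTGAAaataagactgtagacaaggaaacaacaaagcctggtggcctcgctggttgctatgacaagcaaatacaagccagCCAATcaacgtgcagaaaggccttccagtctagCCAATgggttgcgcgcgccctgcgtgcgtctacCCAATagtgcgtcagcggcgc
Ube2c: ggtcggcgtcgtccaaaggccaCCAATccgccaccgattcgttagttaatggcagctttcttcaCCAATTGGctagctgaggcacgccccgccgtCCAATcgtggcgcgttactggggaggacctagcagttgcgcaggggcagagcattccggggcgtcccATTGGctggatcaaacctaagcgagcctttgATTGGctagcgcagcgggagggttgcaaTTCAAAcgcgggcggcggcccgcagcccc

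For immune and fat genes the answer depended on which outer array was used, and the shares below both stand against 12.9% of all tested genes. Of 23 macrophage and monocyte genes none lay above both outer arrays and 4 (17.4%) below, and the median of the list was -1.14 against the shaved array and 0.07 against the 50 d array. Lyz2, the lysozyme of macrophages, stood at 3.43, 3.23 and 3.36 early, against 4.90 shaved and 3.79 at 50 d. Of 15 genes of MHC class II presentation 5 (33.3%) lay below both, with medians of -0.95 against the shaved and -0.01 against the 50 d array, and H2-DMa, which loads peptides, stood at 1.32, 1.17 and 1.29 early, against 3.03 shaved and 2.01 at 50 d. Of 22 interferon-stimulated genes 3 (13.6%) lay below both, with medians of -1.10 and -0.14. Inflammatory cytokines had 2 of 13 (15.4%) below and none above, with a median of -0.05, and chemokines had 3 of 26 (11.5%) above and 6 (23.1%) below. Ccl8, a chemokine for monocytes, stood at 5.80, 5.40 and 4.95 early, against 6.83 shaved and 6.07 at 50 d. By list median the shaved array was the higher outer array for all of these immune lists but the inflammatory cytokines.

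By list median, the 1 d and 2 d arrays lay between the outer arrays for mature adipocyte genes and the 12 h array below both. About the outer mean the medians were -0.45, 0.06 and 0.17 early, against -0.21 shaved and 0.21 at 50 d. Of 20 mature adipocyte genes 2 (10%, against 12.8% of all tested genes) lay above both and none below. The median of the list was 0.24 against the shaved and -0.29 against the 50 d array. Cidec, which fuses lipid droplets, stood at 7.15, 7.02 and 6.97 early, against 6.61 shaved and 6.40 at 50 d, and was at 5.80 at 4 d. Of 19 genes of lipolysis and fatty acid oxidation 4 (21.1%) lay above both and 3 (15.8%) below, with a median of -0.06. All tested genes gave 12.8% above and 12.9% below. None of 20 genes of fatty acid and triglyceride synthesis and none of 25 of oxidative phosphorylation lay beyond both outer arrays. Against the 50 d array their medians were -0.83 and -0.68, and against the shaved array 0.21 and 0.12. Skeletal muscle genes behaved alike, with 3 of 20 (15%, near the 12.9% of all tested genes) below both and medians of -0.81 against the 50 d array and 0.03 against the shaved array. Their log2 summed signal was 12.01, 12.24 and 12.14 on the early arrays, against 12.10 on the shaved and 12.64 on the 50 d array. The part of muscle RNA in the oxidative phosphorylation values of the 50 d array was not tested. Genes of the hair shaft and inner root sheath had 3 of 25 (12%, against 12.8% of all tested genes) above both outer arrays, with medians of 1.16, -0.27 and 1.30 above the outer mean at 12 h, 1 d and 2 d.

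**Figure D5:**
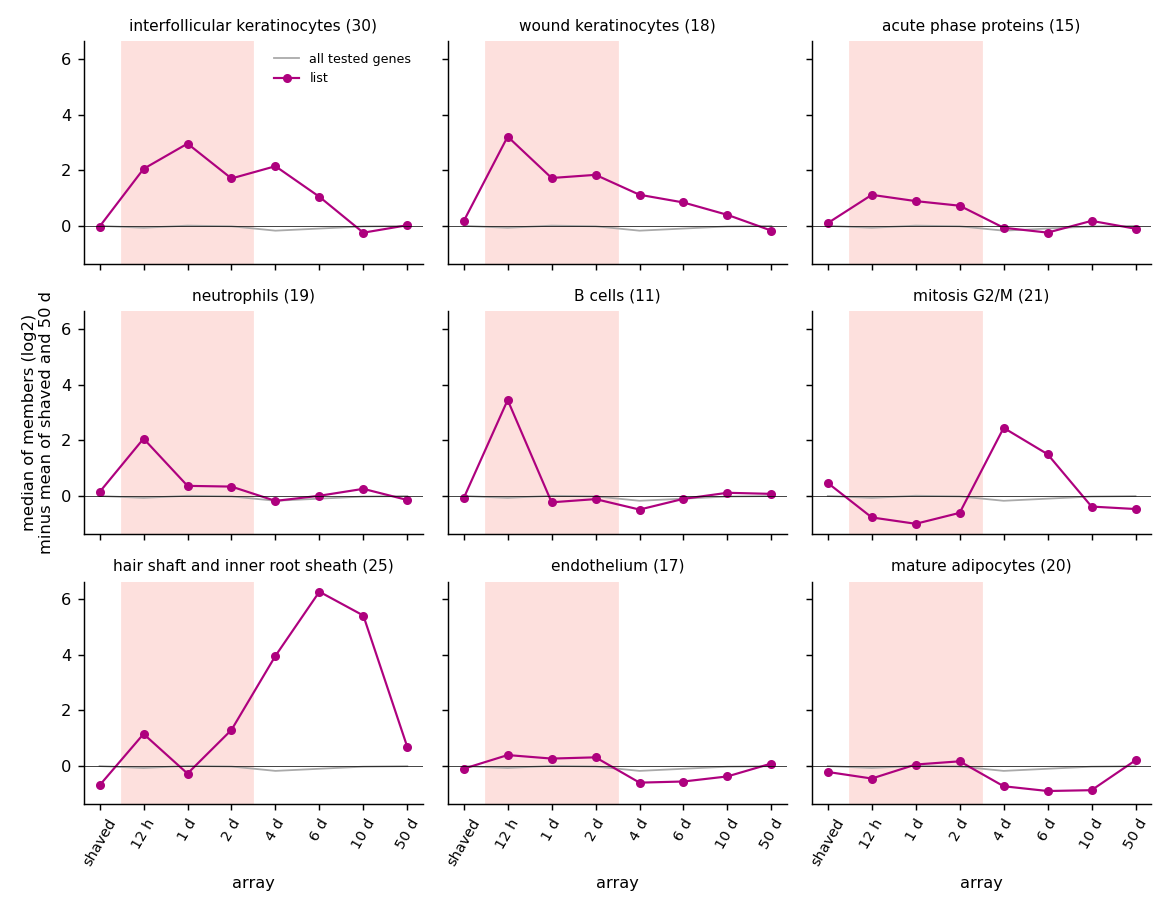
Median of the members of 9 lists on each of the 8 arrays, in log2 units above the mean of the shaved and 50 d arrays, with the 12 h, 1 d and 2 d arrays shaded and the median of all tested genes in grey. Interfollicular keratinocyte genes are at 2.05, 2.96 and 1.70 in the shaded window, B cell genes are high at 12 h only (3.45), and mitotic genes lie below 0 in the window and reach 2.45 at 4 d.

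Of the 177 higher genes 46 belonged to any of the 40 lists, 33 of them to the 2 keratinocyte lists, and 131 to none. Of the 31 lower genes 2 were in a list. Among the higher genes outside the lists were Prg4, for the lubricant proteoglycan 4, at 4.02, 3.07 and 0.96 early, against -0.85 on the shaved and -1.49 on the 50 d array, and Cpm, a membrane carboxypeptidase, at -0.44, -0.58 and -0.46 early, against -2.08 shaved and -1.91 at 50 d. Cpm was higher at 4 d and 6 d, at 2.04 and 1.92, than in the early window.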

How the data were processed

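RNA of 8 samples was hybridised to 8 one-colour Cy3 arrays on 1 slide. The deposited values are spot intensities that, per the file headers, Agilent Feature Extraction had background-subtracted and detrended, with surrogates for dim spots, and the headers record no scaling between arrays. Control spots and outlier spots were left out, spots of a probe were averaged, and 55668 of 55681 probes, of 34790 gene names, were used. Each deposited intensity was taken to log2 here, and the array's own 75th percentile was subtracted. The probe brightest over the arrays stood for a gene. A gene was tested when it was well above background on all 3 early or both outer arrays. Probe positions are on mm9 per the file headers. Exon or UTR positions are not given here, because no annotation of that build was used. Accessions of 27229 probes matched a RefSeq table of another build, GRCm38.p6, used for current symbols and promoters only.

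The gap of a gene is its lowest early minus its highest outer value, or, for lower genes, its highest early minus its lowest outer value. Bounds take the dim side at the lowest signal that was well above background on that array, or at the gene's own signal where higher. The 3 early were set against the 2 outer arrays with limma 3.58.1 (lmFit, then eBayes with a trend; R 4.3.3), and two-sided p-values were adjusted by Benjamini-Hochberg over all 27723 genes. The arrays of a group come from different times and are not known to be separate mice, so p-values measure only the spread between these arrays. When arrays of this comparison were simulated, the fit recovered 36% of 100 genes shifted by log2 1, 95% of 100 shifted by log2 2, and made 13 false calls. The simulated noise was independent between arrays and genes, and a shift was the same on all 3 early arrays. Without a course over time or an outer difference of its own, the simulation does not give the power of the fit on the real arrays. Tables were made with pandas 2.3.3 and numpy 2.4.6 under Python 3.11.15.

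The members and the 40 gene lists were chosen with earlier results of these data known, and lists share some genes. The 40 lists hold 771 entries, and 8 of these had no match on the array. Genes were named by a rule: the 12 largest gaps in each direction, the 4 largest bounds, up to 4 members per list, and the 4 flattest and 4 steepest ordered courses. Abca12, Acer1, Adipoq, Akap5, Aloxe3, Casp14, Ccnb2, Cd79b, Cd83, Clec4d, Cyp4f14, Defb6, Degs2, Dsc1, Dsc3, Dsg1a, Egf, Epgn, Fabp4, Frzb, Gal3st4, Hp, Il1f5, Il1f8, Klk5, Klk7, Klk8, Klk9, Krt10, Krt14, Krt16, Krt17, Krt5, Krt6b, Krtdap, Lep, Lor, Mki67, Pecam1, Prg4, S100g, Sbsn, Sult2b1, Tgm1 and Trp63 lie outside it or were picked after their values were seen, as were the promoters shown. The alternatives run were normexp with an offset of 50, quantile normalization, centring on the median of measured probes, background filters, the mean over probes, other fold thresholds and leaving out each array.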

Additional observations from a re-analysis of the deposited data

Results flagged for a closer look

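Endothelial genes lay on opposite sides of the outer arrays in 2 windows. The medians of the 17 measured members about the mean of the outer arrays were 0.40, 0.27 and 0.32 at 12 h, 1 d and 2 d, and -0.59, -0.55 and -0.37 at 4 d, 6 d and 10 d. The median of the early arrays minus that of the 4 d to 10 d arrays was 0.833. Every early array was above and every later array below the outer mean, and the difference was not tested. Pecam1, an adhesion protein of vessel walls, stood at 0.18, -0.01 and 0.11 on the early arrays, at -0.80 at 4 d and -0.76 at 6 d, and at -0.33 on the shaved and -0.08 on the 50 d array.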

How the results depend on the processing

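Each time is 1 array, so the spread between mice is unknown, and mixed tissue, age and dim outer values limit what a gap shows. Requiring fewer arrays loosens the rule by construction. Leaving out 1 array gave 4304 to 8447 genes above and 4764 to 9268 below the outer arrays, with 5698 above without 12 h, 8447 and 9268 without the shaved and 7914 and 8458 without the 50 d array. At least 2-fold above, leaving out 1 array gave 220 to 372 genes (372 without the shaved array), normexp 99, a 1.5-fold threshold 326 and a 4-fold threshold 36. At least 2-fold below, leaving out 1 array gave 41 to 274 genes (47 without 12 h, 62 without 2 d, 233 without the shaved and 274 without the 50 d array), normexp 9, 1.5-fold 107 and 4-fold 0. Quantile normalization and centring kept 169 and 171 of the 177 higher and 27 and 30 of the 31 lower genes at 2-fold, and the mean over probes kept 167 and 28. In the limma fit the count of genes at an adjusted p under 0.05 was 0 as reported, 1 with quantile normalization, 6 with normexp and 0 to 2 with 1 array left out (2 without 2 d), and 2426 genes had an unadjusted p under 0.05. Of the wound keratinocyte genes 8 lay above both outer arrays when all 5 arrays had to be well above background, since fewer genes were then tested, and of the neutrophil genes 10 to 16 did with 1 array left out (16 without the shaved array). List medians moved by less than the spread in 415 of 440 recomputed values. Some changed sign with 1 outer array left out. The mature adipocyte median of -0.10 was 0.24 against the shaved array alone. The macrophage and monocyte median of -0.49 was 0.07 against the 50 d array alone. Of 1718 values for single genes 1581 moved by less than the spread. Among those that changed sign, Trpm1 was -0.17 and Pax5 -0.033 with the mean over probes, and Mmp10 was -0.076 with normexp. Some also changed sign with 1 outer array left out, such as Acly, from -0.74 to 0.19 against the shaved array alone. The cause was not tested. The counts of interfollicular keratinocyte, acute phase, alarmin, glucocorticoid and mitotic members stayed within 1.5 times of their value under the alternatives run, and the counts for other lists, families, positions and motifs were not recomputed. No paired analysis was possible because each group has 1 array and the shared replicate number pairs nothing.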

Other observations

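Several lower genes were lower on 4 consecutive arrays than on the other 4. Gbp1 was at -4.18, -4.14, -4.18 and -4.51 on the 12 h, 1 d, 2 d and 4 d arrays, against -2.03 at 6 d, -2.60 at 10 d, -1.71 on the shaved and -2.29 on the 50 d array. Pilrb1, a receptor of myeloid cells, was at -3.17, -3.48, -3.36 and -3.55 on the 4 arrays, against -1.63 at 6 d, -1.66 at 10 d, -1.05 on the shaved and -2.02 on the 50 d array. Pla2g2d was at 0.71, -0.01, 0.36 and 0.65 on the 4 arrays, against 2.12 at 6 d, 1.81 at 10 d, 2.33 on the shaved and 1.89 on the 50 d array. Csprs was at 1.59, 1.31, 0.45 and 0.56 on the 4 arrays, against 2.77 at 6 d, 2.43 at 10 d, 2.64 on the shaved and 2.75 on the 50 d array, and it belongs to a family of near-identical copies whose probes may share signal. Mucl1 was at -1.83, -1.09, -1.42 and -1.71 on the 4 arrays, against 0.37 at 6 d, 0.71 at 10 d, 0.38 on the shaved and 0.54 on the 50 d array. The 5 genes were picked for this shape after their values were seen.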
